A study of Mus musculus with 4 samples.

Results

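The 48 genes described here encode subunits, assembly factors and regulators of the proteasome, and were taken from the deposited tables as every gene whose symbol starts with Psma to Psmg followed by a number. They were 48 of the 12742 genes named in the tables. RNA of single sorted bone marrow cells of C57BL/6 mice was measured in 4 pooled libraries, 1 each for wild-type (WT) hematopoietic stem cells (HSC), GRK6-/- HSC, WT common lymphoid progenitors (CLP) and GRK6-/- CLP. The knockout carries a deletion of exons common to the splice forms of Grk6, a kinase that phosphorylates activated G protein-coupled receptors, and was compared with WT littermates. By the study's methods the mice were young adults. HSC were gated as Lin-c-kit+sca-1+, and the CLP gate added Il-7Ra+ to the same markers. Each library pooled amplified cDNA of 13 to 15 cells from 3 to 4 mice, so that no group had replicates and no difference between 2 libraries could be set against a spread between mice or cells. In such pools, fewer cells of a type and less RNA per cell cannot be told apart.

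The proteasome degrades proteins that carry ubiquitin chains. Its barrel-shaped core is built from outer rings of alpha subunits and inner rings of beta subunits, and only some of the beta subunits cut peptide bonds. A regulatory particle caps the core. The base of that particle holds a ring of ATPases that unfolds the substrate and feeds it into the core, and its lid holds the enzyme that removes ubiquitin. In blood cells and after interferon, the immunoproteasome subunits Psmb8, Psmb9 and Psmb10 take the places of the standard catalytic subunits Psmb5, Psmb6 and Psmb7 and change which peptides are made for MHC class I. Proteasome activity is also part of how stem cells control their protein content.

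By these roles the members were 7 alpha subunits, 4 structural and 3 catalytic beta subunits, the 3 immunoproteasome subunits, 6 ATPases of the base, 3 other base subunits, 8 lid subunits, 7 assembly factors and 5 activators or inhibitors. Psma8, an alpha subunit of the testis, stood alone. Psmc3ip matched the rule by its symbol only, since it encodes a partner of meiotic recombinases and no proteasome subunit. Of the 48 symbols, 41 carried a proteasome term in the deposited annotation, Psmc3ip among them. The 7 without one were Psmd5, Psmd9, Psme2 and Psmg1 to Psmg4. Psmb11, the thymus-specific catalytic subunit, had no row in any library.

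The values were FPKM, fragments divided by transcript length and scaled to the mapped fragments of the library. Comparing levels between genes takes fragments to be spread evenly along transcripts, which was not checked here for cDNA made with poly(dT) priming. From the steps between low values, the libraries were estimated to be scaled to 2790000 to 4360000 fragments. By this estimate, 3 fragments of a 1 kb transcript correspond to 0.687 to 1.07 FPKM. The paper reports a larger number of sequenced reads per lineage. Fragment numbers given below rest on this estimate and on the longest coding transcript of each gene, and are approximate. Grk6 itself had 42.7 (WT) and 89.4 (GRK6-/-) FPKM in HSC, and 26.9 (WT) and 57.6 (GRK6-/-) FPKM in CLP, higher in the libraries labelled as knockout. A value per gene does not separate the deleted exons from the rest, so it does not check the labels. The CLP markers were summed to 2756 FPKM in WT CLP (7 of 7 listed) and 1992 in GRK6-/- CLP (6 of 7), against 168 in WT HSC (2 of 7) and 118 in GRK6-/- HSC (4 of 7). The HSC markers did not separate the populations. Without Ly6a they summed to 257 (WT) and 419 (GRK6-/-) FPKM in HSC and to 277 (WT) and 452 (GRK6-/-) in CLP, with 6 of 7 listed in WT HSC and 7 of 7 in the others. Ly6a, which encodes the gating marker sca-1, had a value only in WT HSC, 1998 FPKM in a row shared with other Ly6 genes, and no row in the other 3 libraries. The GRK6-/- CLP library stood apart in genes listed as markers of other lineages. Its erythroid markers summed to 17459 FPKM (4 of 7 listed) against 10.4 to 116 in the other 3 libraries, its B lineage markers to 886 (5 of 6) against 35.5 to 90.3, and its antigen-presenting cell markers to 1566 (5 of 6) against 42.4 to 102. The last sum was carried by Cd74 and the MHC class II genes H2-Aa, H2-Ab1 and H2-Eb1, while Itgax was lower in GRK6-/- CLP (1.15 FPKM) than in WT CLP (7.19), and Pax5 and Csf1r had no row there (Csf1r 16.6 in WT CLP). Neutrophil granule markers summed to between 7632 and 17749 FPKM in all 4 libraries, and T and NK cell markers to between 248 and 603. The T and NK sum was carried by Nkg7, with 597 (WT) and 398 (GRK6-/-) FPKM in HSC and 248 (WT) and 415 (GRK6-/-) in CLP. Of the other genes of that list, Gzma and Ncr1 had no row in any library, and Cd3e, Cd3d and Cd4 had at most 9.63 FPKM. Of the B lineage markers, Vpreb1 (16.4 FPKM) and Cd79a (32.1) also had values in WT CLP. Whether other cells were in the pools was not tested, nor was the part of these marker signals in the proteasome values. The comparisons that leave out the GRK6-/- CLP library are GRK6-/- against WT in HSC and CLP against HSC in WT.

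Promoter sequence was taken from RefSeq (build GRCm38.p6), which had an entry for 40 of the 48 members. Windows of 250 bases before the annotated start were searched on both strands for short motifs, and the sequences shown are those of the groups contrasted in the results. The first set shows the 2 standard catalytic subunits with an entry, which both held the core of the antioxidant response element, TGACNNNGC (in capitals), a motif of oxidative stress genes. The motif was present in 5 of the 40 members (Psmb5, Psmb6, Psmc6, Psmd9 and Psmd12; 12.5%) and in 11.5% of all 27025 genes with an entry. In Psmb5 it ended 39 bases before the start (chr14:54618009-54618067, minus strand), and in Psmb6 directly before it (chr11:70525323-70525356, plus strand).
Psmb5: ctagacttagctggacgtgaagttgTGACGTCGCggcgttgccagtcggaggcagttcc
Psmb6: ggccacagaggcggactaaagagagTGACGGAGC

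The second set shows the immunoproteasome genes. Psmb8 held the letters of a gamma-activated site, TTCNNNGAA (in capitals), 97 to 89 bases before its start (chr17:34198073-34198131, plus strand). These letters were found in 2 of the 40 members, Psmb8 and Psmg1 (5%), and in 8.13% of all genes. Psmb9 starts back to back with Tap1, a subunit of the peptide transporter for MHC class I, and the 225 bases between both starts (chr17:34187331-34187555, plus strand as shown) hold a single CCAAT box in capitals. The interferon-stimulated response core, GAAA and again GAAA with a pair of any bases between, was not among the letters of any immunoproteasome window and was found in 3 members, Psmb3, Psmd4 and Psmd9 (7.5%, against 3.46% of all genes). An E-box, CACGTG, was found in 4 members (10%, against 6.86%).
Psmb8: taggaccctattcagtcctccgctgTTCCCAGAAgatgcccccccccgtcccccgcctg
Psmb9 and Tap1: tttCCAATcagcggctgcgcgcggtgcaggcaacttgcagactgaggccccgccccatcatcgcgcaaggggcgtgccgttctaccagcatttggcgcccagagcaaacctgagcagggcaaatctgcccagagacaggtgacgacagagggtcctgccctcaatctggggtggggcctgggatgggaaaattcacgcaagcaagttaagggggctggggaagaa

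The third set shows the alpha subunits, whose values lay on the same side in CLP. CCAAT boxes (in capitals) were found in 5 of their 7 promoters, and Psma4 and Psma5 had none in the window. Over all members the box was found in 14 of 40 (35%), against 37.5% of all genes. The windows shown are chr7:114276190-114276234 for Psma1 and chr2:180042636-180042680 for Psma7 on the minus strand, and chr13:14613168-14613212 for Psma2, chr12:70974464-70974508 for Psma3 and chr12:55384173-55384217 for Psma6 on the plus strand.
Psma1: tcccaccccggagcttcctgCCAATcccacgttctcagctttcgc
Psma2: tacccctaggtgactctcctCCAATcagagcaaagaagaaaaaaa
Psma3: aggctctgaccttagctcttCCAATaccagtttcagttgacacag
Psma6: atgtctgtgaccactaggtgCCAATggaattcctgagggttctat
Psma7: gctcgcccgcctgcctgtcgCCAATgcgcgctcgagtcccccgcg

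Most proteasome genes had FPKM in the upper part of the values of all 4 libraries. Of the members with a row, 39 of 47 in WT HSC, 40 of 48 in GRK6-/- HSC, 39 of 48 in WT CLP and 33 of 47 in GRK6-/- CLP lay at or above the percentile 75 of their library's values. The mean over the 4 libraries was at least 100 FPKM for 18 members, between 10 and 100 for 29, and below 10 only for Psme4. All members but Psma8 had a row in all 4 libraries. Over these 47, the highest library exceeded the lowest by a median of 2.14-fold, by under 2-fold in 21 members, and by over 4-fold in 6. The highest value was in GRK6-/- HSC for 22 of the 47, and the lowest was in GRK6-/- CLP for 22. These counts were not made over all genes, so they are not read as a trait of the members.

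**Figure D1:**
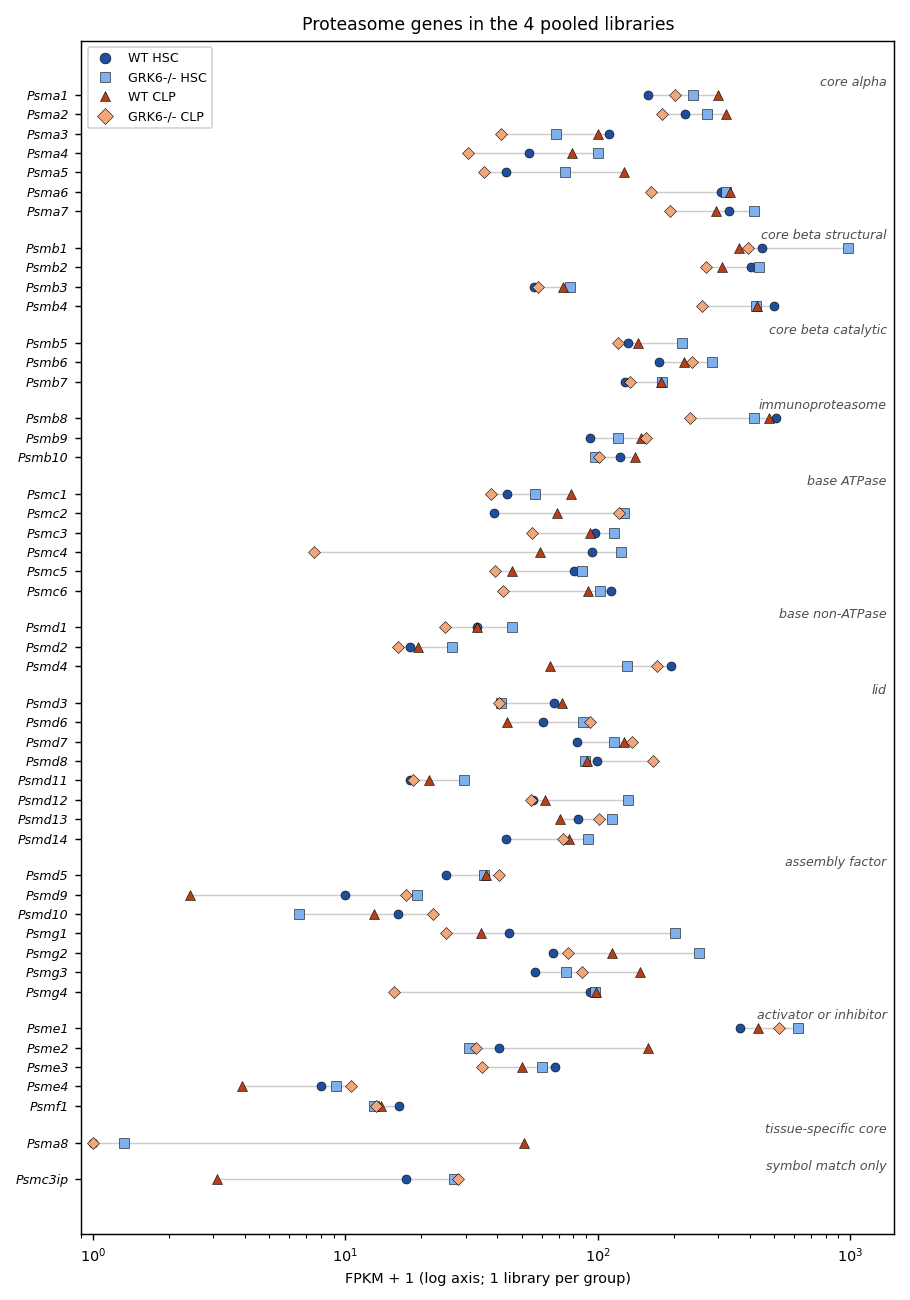
FPKM + 1 on a log axis for each of the 48 members, grouped by complex, with 1 symbol per library and a grey line from the lowest to the highest library. Core subunits lay mostly to the right of base and lid subunits, and the GRK6-/- CLP diamond was the lowest symbol of its row for 22 of the 47 members with a row in all libraries. This count was not made over all genes.

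Levels per length differed between subunits that the complex holds in equal numbers. Among the alpha subunits, which form the outer rings of the core, Psma7 had the highest mean, with 332 (WT) and 416 (GRK6-/-) FPKM in HSC and 293 (WT) and 192 (GRK6-/-) in CLP. Psma4 had the lowest, with 52.5, 99.1, 77.9 and 29.6 FPKM in the same order. Wherever 4 values follow each other below, the first pair is HSC, the second is CLP, and WT comes before GRK6-/- in each. The structural beta subunits were led by Psmb1, with 448, 979, 364 and 394 FPKM, while Psmb3 had 54.9, 76.8, 72.0 and 57.0. Of the Psmb3 transcript stretches of 50 letters, 26.9% also occur in the gene models Gm4950 and Gm5356, so its level is uncertain. Within one library the highest alpha subunit exceeded the lowest by 4.28- to 7.83-fold.

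Base and lid genes were lower. Of the ATPases of the base, Psmc3 had the highest mean, with 96.8, 115, 92.5 and 53.8 FPKM, and Psmc1 the lowest, with 42.8, 55.6, 77.7 and 36.8. Among the lid subunits, Psmd7, the partner of the deubiquitinating subunit, had 82.1, 115, 127 and 136 FPKM, and Psmd11 had 17.01, 28.7, 20.5 and 17.6. The 14 core genes (immunoproteasome genes left out) summed to 6.08, 5.87, 5.85 and 3.404 times the 8 lid genes. By sums, the ratio thus lay close together in 3 libraries and was lower in GRK6-/- CLP. The ratio of the medians was 2.63, 2.83, 3.62 and 2.06, also lowest in GRK6-/- CLP but with WT CLP above the HSC libraries.

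In HSC, most proteasome genes were somewhat higher in the GRK6-/- library. Of 47 members compared, 35 were above their WT value (74.5%, against 51.8% of all genes), with a median log2 ratio of FPKM + 1 of 0.41, against 0.05 over all genes. Psmb5 was left out of such counts because its row in both HSC libraries named Mir686 as well. Few members passed a 2-fold difference. There were 6 higher and 1 lower, or 14.9% of the members, where 37.4% of all 11624 genes compared passed it (19.3% higher and 18.0% lower). The members' share was thus below the background.

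The largest differences in HSC were in chaperones of core assembly. Psmg1 and Psmg2, which together scaffold the alpha ring, had 43.6 and 65.3 FPKM in WT HSC and 201 and 250.1 in GRK6-/- HSC, a log2 ratio of 2.18 and 1.92. In the CLP libraries Psmg1 had 33.6 (WT) and 24.1 (GRK6-/-) FPKM and Psmg2 113 (WT) and 75.2 (GRK6-/-), so that GRK6-/- HSC was the highest of the 4 libraries for both. Psmg3 and Psmg4, the other pair of alpha-ring chaperones, did not pass in HSC: Psmg3 had 55.2, 73.9, 147 and 86.1 FPKM in the 4 libraries, and Psmg4 had 92.1, 96.7, 97.8 and 14.6. Of Psmg4, the GRK6-/- CLP value stood far below the rest.

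Psmc2, an ATPase of the base, had 37.9, 126, 68.0 and 120.2 FPKM, a log2 ratio of 1.71 in HSC. Both knockout libraries were above both WT libraries. Psmd12, a scaffold subunit of the lid, had 54.7, 130.5, 60.9 and 53.2 FPKM (log2 ratio 1.24), and only GRK6-/- HSC stood above the rest. Psmb1 had a log2 ratio of 1.13. Psmd14, the lid enzyme that removes ubiquitin from substrates, had 42.2, 90.9, 75.7 and 72.2 FPKM (log2 ratio 1.09), with WT HSC alone at the low end. The 1 member past 2-fold lower was Psmd10, a chaperone of base assembly also known as gankyrin, with 15.2, 5.59, 12.02 and 21.3 FPKM (log2 ratio -1.30).

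In CLP, most proteasome genes were lower in the GRK6-/- library. Of the 47, 32 were below their WT value in the GRK6-/- library (68.1%, against 48.5% of all genes), with a median log2 ratio of -0.41, against 0.05 over all genes. The counts past 2-fold were 11 lower and 5 higher, or 34.0% of the members, where 50% of all 11191 genes compared passed it (23.4% lower and 26.6% higher). The lower members were thus at the background share of 23.4%, and the higher ones below theirs. These values rest on the GRK6-/- CLP library, which carries the erythroid, B lineage and antigen-presenting signals given above, and their part in the lower values was not tested.

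The alpha subunits were lower in GRK6-/- CLP as a group. All 7 lay below WT CLP, where 48.5% of all genes did, with a median log2 ratio of -1.04. Psma3, Psma4, Psma5 and Psma6 passed 2-fold, where 23.4% of all genes were past 2-fold lower. Psma5 had 42.4, 73.2, 127 and 34.4 FPKM, a log2 ratio of -1.85 in CLP. Of its transcript stretches of 50 letters, 37.98% also occur in the gene model Gm8394, so reads may have been shared. Psma4, listed above, had a log2 ratio of -1.37, and its highest library was GRK6-/- HSC, where Psma5 was highest in WT CLP. Psma6 had 306, 323, 334 and 161 FPKM (log2 ratio -1.04). Psma3 had 110.0, 67.6, 99.5 and 40.4 FPKM (log2 ratio -1.28), and both knockout libraries were below both WT libraries. The same 7 alpha genes had a median log2 ratio of 0.32 in HSC. There 6 of 7 were higher in GRK6-/-, against 51.8% of all genes, and none passed 2-fold, against 37.4%.

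ATPases of the base followed, with a median log2 ratio of -0.92 in CLP and 5 of 6 below WT, against 48.5% of all genes. Psmc4 had 93.8, 123, 58.3 and 6.498 FPKM, a log2 ratio of -2.98. The last value corresponds to about 26 fragments, against 366 or more in the others, and stood far below the 3 other libraries. Psmc1 and Psmc6 passed with log2 ratios of -1.06 and -1.12. Psmc2 was the exception and was higher in GRK6-/- CLP, at 120.2 against 68.0 FPKM.

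The lid genes lay on both sides of WT. The 8 genes had a median log2 ratio of 0.02 in CLP, 4 above and 4 below WT (51.5% and 48.5% of all genes). Only Psmd6, a lid scaffold, passed 2-fold, where 50% of all genes did. It had 60.004, 86.8, 42.6 and 92.6 FPKM in the 4 libraries (log2 ratio 1.10). By sums, alpha over lid was 2.42, 2.14, 2.78 and 1.24, and ATPases over lid 0.920, 0.875, 0.775 and 0.438. By medians, alpha over lid was 2.49, 2.64, 4.15 and 1.96, and ATPases over lid 1.37, 1.21, 1.03 and 0.480. The GRK6-/- CLP library was the lowest of the 4 in both ratios, by sums and by medians. A ratio within a library shows unequal levels and does not tell which side differed.

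**Figure D2:**
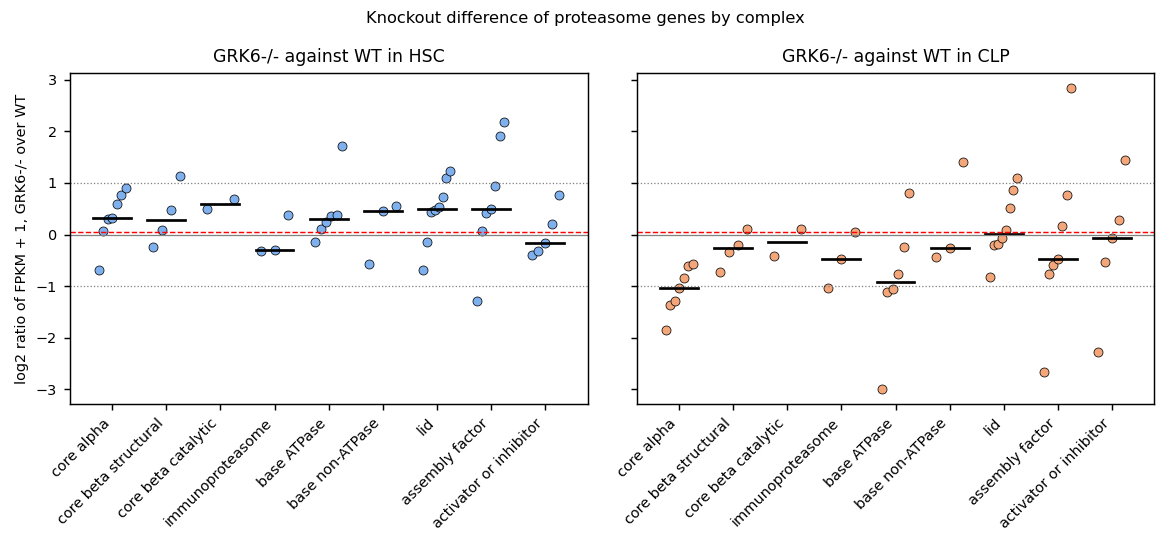
Log2 ratio of FPKM + 1, GRK6-/- against WT, in HSC and in CLP, with 1 point per gene, black bars for group medians and a dashed red line for the median over all genes (0.05 in both). Psmb5, Psma8 and Psmc3ip are not drawn. The 7 alpha subunits lie below 0 in CLP, where 48.5% of all genes do, with a median of -1.04, and the lid is centred at 0.02.

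Other members past 2-fold in CLP were spread over assembly and regulation. Psmg4 had a log2 ratio of -2.66, its 14.6 FPKM in GRK6-/- CLP corresponding to about 23 fragments of a short transcript. Psme2, the beta subunit of the interferon-inducible activator that opens the core, had 39.6, 30.03, 158 and 31.98 FPKM, a log2 ratio of -2.27, and stood out in WT CLP only. Of its transcript stretches, 54.9% also occur in the gene model Psme2b-ps, so its level is uncertain. Its partner in the same ring and its neighbour on the chromosome, Psme1 (mm9 chr14:56197331-56200364, with Psme2 at chr14:56206277-56209938), had 365, 623, 431 and 524 FPKM and passed 2-fold in no comparison.

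Psma8 had no row in WT HSC, 0.327 FPKM in GRK6-/- HSC (about 2 fragments), 50.1 in WT CLP (about 370 fragments) and no row in GRK6-/- CLP. It was therefore seen in 1 library above the floor of 3 fragments, and no fold change is given. It is counted among the lower members in CLP and among the higher members of WT CLP over WT HSC.

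On the higher side in CLP were Psmc3ip, Psmd9, Psme4, Psmd4 and Psmd6. Psmd9, a chaperone of base assembly, had 8.99, 18.2, 1.43 and 16.4 FPKM (log2 ratio 2.84), and Psmc3ip had 16.5, 26.1, 2.11 and 26.9 (log2 ratio 3.16). WT CLP was the low library in both, with about 16 and 12 fragments. Psme4, the large nuclear activator, had 6.98, 8.15, 2.89 and 9.56 FPKM (log2 ratio 1.44). Psmd4, a ubiquitin receptor of the base, had 194, 129.9, 63.6 and 171 FPKM (log2 ratio 1.41), and WT CLP was again the lowest.

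No member passed 2-fold in both populations, where 20.9% of 10398 genes with a row in each comparison did. In 23 of the 47 (48.9%, against 25.2% of those genes) the GRK6-/- library was higher in HSC and lower in CLP, and in 3 (6.38%, against 24.8%) it was lower in HSC and higher in CLP. It was higher in both in 12 (25.5%, against 25.9%) and lower in both in 9 (19.1%, against 24.1%). Opposite signs were thus found in 55.3% of the members and 49.96% of those genes. Whether the populations differ in this was not tested, since each value is 1 library against 1.

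Psme3 and Psmf1 stayed under 2-fold. Psme3, the nuclear activator of the same family as Psme1, had 66.8, 59.4, 49.0 and 33.8 FPKM, 1.98-fold from the highest to the lowest. Psmf1, an inhibitor of the core, had 15.3, 12.04, 12.8 and 12.2, within 1.27-fold of each other. Neither passed 2-fold in any comparison. They were 2 of the 20 members that passed in none, which also held Psma1, Psma2, Psmb2, Psmb3, Psmb4, Psmb6, Psmb7, Psmb9, Psmb10, Psmd1, Psmd2, Psmd3, Psmd5, Psmd7, Psmd8, Psmd11, Psmd13 and Psme1.

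The immunoproteasome genes were compared with the catalytic subunits they replace. Psmb8 (mm9 chr17:34335140-34338399) was the most abundant of the 3 in every library, with 509 (WT) and 415 (GRK6-/-) FPKM in HSC and 478 (WT) and 231 (GRK6-/-) in CLP. Psmb9 (chr17:34318838-34324317) had 92.1, 119.6, 148 and 154 FPKM, and Psmb10 (chr8:108459626-108462292) had 121, 96.7, 140.0 and 99.9. The 3 did not share an order, since GRK6-/- CLP was the lowest library for Psmb8 and the highest for Psmb9. Only Psmb8 passed 2-fold, in GRK6-/- against WT CLP, with a log2 ratio of -1.04.

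The standard subunits had their highest values in GRK6-/- HSC. Psmb5 had 131, 215, 144 and 119.6 FPKM, with the first 2 values from the joint row. Psmb6 had 175, 282, 218 and 235, and Psmb7 had 127, 179.6, 177 and 133. The 3 immunoproteasome genes summed to 1.67 (WT) and 0.933 (GRK6-/-) times the 3 standard genes in HSC, and 1.42 (WT) and 0.996 (GRK6-/-) times in CLP. Both WT libraries were above both GRK6-/- libraries. By pair, Psmb8 over Psmb5 was 3.90, 1.93, 3.32 and 1.93, Psmb9 over Psmb6 was 0.527, 0.424, 0.679 and 0.657, and Psmb10 over Psmb7 was 0.952, 0.539, 0.790 and 0.751. All 3 pairs were lower in GRK6-/- than in WT in both populations, by little for the last 2 pairs in CLP. Without the pair of Psmb8 and Psmb5, the summed ratio was 0.706, 0.469, 0.729 and 0.691, so the CLP difference rests mostly on that pair. With 2 libraries per genotype, an exact permutation test of the ratio cannot reach 0.05.

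**Figure D3:**
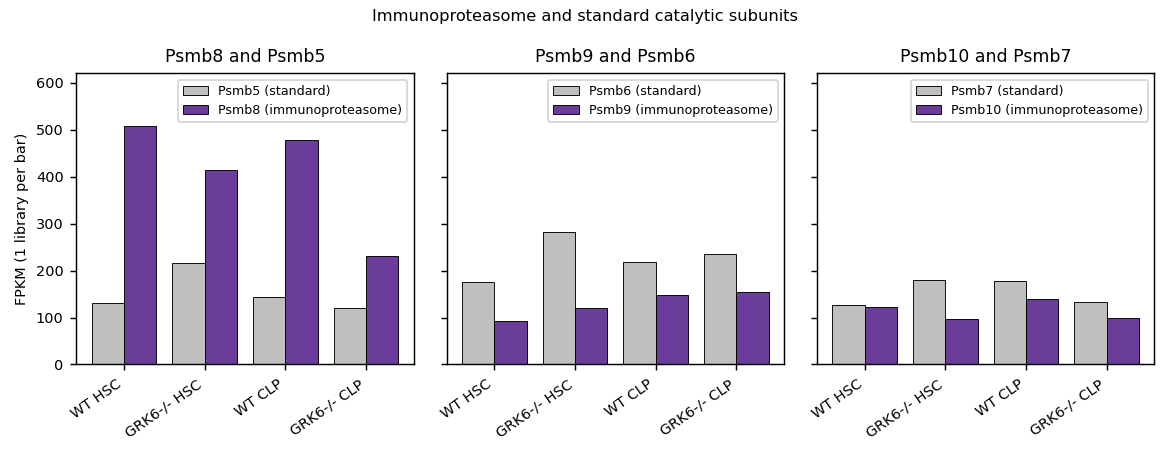
FPKM of each immunoproteasome gene (purple) beside the standard catalytic gene it replaces (grey), 1 panel per pair, 1 bar per library and no error bars because there are no replicates. Psmb8 stands above Psmb5 in every library, by 3.90-fold in WT HSC and 1.93-fold in GRK6-/- HSC, while Psmb9 and Psmb10 stay below their partners.

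Genes of antigen processing, which share the interferon response with the immunoproteasome, were read beside them. Of 7 compared, 2 were past 2-fold higher in GRK6-/- HSC and none lower (28.6%, against 37.4% of all genes), and 2 were higher and 1 lower in GRK6-/- CLP (42.9%, against 50%). Tap1, next to Psmb9, had 51.0, 119.7, 88.9 and 59.2 FPKM. Nlrc5, the activator of MHC class I genes, had 8.31, 4.74, 77.3 and 10.4, and WT CLP alone was high. B2m, the light chain of MHC class I, had 4065, 4949, 4902 and 5119.

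Between populations, WT CLP and WT HSC had similar proteasome levels by the median over the members compared. The median log2 ratio of CLP over HSC was 0.10, against -0.08 over all genes, and 4 members were past 2-fold higher and 4 lower (17.02% of the members, against 46.5% of all 11202 genes, 21.8% higher and 24.7% lower). Higher in CLP were Psma8, Psme2 (log2 ratio 1.97), Psma5 (1.56) and Psmg3 (1.39). Lower were Psmc3ip (-2.49), Psmd9 (-2.04), Psmd4 (-1.60) and Psme4 (-1.04). All 4 lower members were higher again in GRK6-/- CLP, and all 8 share the WT CLP library with the knockout comparison in CLP. By group, the alpha subunits had a median log2 ratio of 0.54 in CLP over HSC (5 of 7 higher, against 47.3% of all genes). The structural beta subunits had -0.26 (3 of 4 lower, against 52.7%). The WT CLP values are also the reference for the lower alpha values in GRK6-/- CLP.

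In GRK6-/- mice, 12 members were past 2-fold lower in CLP than in HSC and 1 was higher (27.7% of the members, against 45.6% of all 11708 genes, 23.4% lower and 22.3% higher), and the median log2 ratio was -0.43, against -0.08 over all genes. The 5 largest were Psmc4 (-4.05), Psmg1 (-3.01), Psmg4 (-2.64), Psmg2 (-1.72) and Psma4 (-1.71). The other 7 lay between -1.31 and -1.07 and included Psmc3 and Psmc5 of the base. All 7 alpha subunits and all 6 ATPases were lower in CLP, where 52.8% of all genes were, with medians of -0.99 and -1.12. The lid median was -0.10. Psmd10 was the higher member (1.76). This comparison uses the GRK6-/- CLP library as well.

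Abundance bears on these counts, because genes of high FPKM passed 2-fold less often. Among members of 10 to 100 FPKM, 5 of 29 passed in GRK6-/- against WT HSC (17.2%, against 35.3% of all genes of that level), 12 of 29 in CLP (41.4%, against 47.5%), 6 of 29 in WT CLP against WT HSC (20.7%, against 44.5%) and 10 of 29 in GRK6-/- CLP against GRK6-/- HSC (34.5%, against 44.0%). Among members of at least 100 FPKM, 2, 3, 1 and 3 of 17 passed, against 18.4%, 23.0%, 22.4% and 24.3% of all genes of that level. The members' share was below that of all genes at both levels in each of these comparisons. Below 10 FPKM, where 41.6%, 56.2%, 51.8% and 49.8% of all genes passed in the same order of comparisons, Psme4 was the 1 member and passed in GRK6-/- against WT CLP and in WT CLP against WT HSC. In the level of 10 to 100 FPKM the members' median was 0.44 in HSC and -0.43 in CLP for GRK6-/- against WT, against 0.01 and 0.02 over all genes of that level. At 100 FPKM or more, the median over all genes lay on the same side as that of the members. There the members had 0.32 in HSC and -0.41 in CLP, against 0.13 and -0.13 over all genes of that level. For CLP against HSC at that level, the members had 0.20 against -0.07 in WT, and -0.43 against -0.30 in GRK6-/-.

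**Figure D4:**
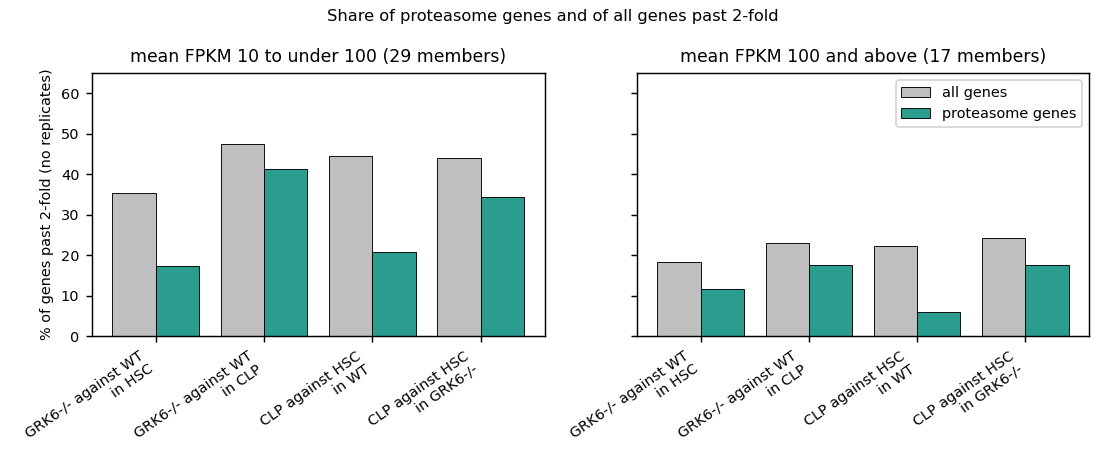
Percent of genes past 2-fold in each comparison, for proteasome genes and for all genes, by mean FPKM over the 4 libraries. In GRK6-/- against WT CLP 41.4% of the members of 10 to 100 FPKM passed, against 47.5% of all genes, the smallest gap of the 4 comparisons at that level.

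Other genes of the ubiquitin and proteasome pathway did not differ in 1 direction. Of 20 compared in HSC, 4 were past 2-fold higher in GRK6-/- and 1 lower (25%, against 37.4% of all genes), and of 19 in CLP, 3 were higher and 4 lower (36.8%, against 50%). Vcp, the ATPase that extracts ubiquitinated proteins, had 60.01, 316, 338 and 71.2 FPKM, a log2 ratio of 2.38 in HSC and -2.23 in CLP. Its cofactor Nploc4 had 6.56, 22.7, 18.7 and 8.54, with log2 ratios of 1.65 and -1.05. Usp14, a deubiquitinase bound to the base, had 7.58, 15.7, 3.25 and 28.5 FPKM (2.80 in CLP), and Nfe2l1, a transcription factor of proteasome genes, had 14.6, 12.4, 27.1 and 8.83 (-1.51 in CLP). Between the populations, 2 of 20 were higher and 3 lower in WT CLP (25%, against 46.5%), and 1 of 19 was higher and 4 lower in GRK6-/- CLP (26.3%, against 45.6%), Vcp among them at 2.47 and -2.14.

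A fit over all 4 libraries used the populations as the only replication of genotype and the genotypes as the only replication of population. For the genotype effect limma called 0 of 11230 genes at an adjusted p under 0.05, and 500 genes (4.45%) had an unadjusted p under 0.05, none of them a proteasome gene. The lowest adjusted limma p of a member was 0.999, a value that most members shared, and Psmd9 had the lowest unadjusted p among them. For the population effect 1 gene was called (0.0089%), 608 (5.41%) had an unadjusted p under 0.05, and no member was among them. Psmc4 and Psma8 shared the lowest adjusted limma p of a member, 0.92. With 1 residual degree of freedom, these p-values do not show that the proteasome genes were unchanged.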

How the data were processed

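RNA-seq of WT and GRK6-/- HSC and CLP was analysed, 1 pooled library per group, with poly(dT) priming and 20 and then 10 PCR cycles per cell. Per the labels, reads were aligned with TopHat 1.4.0 to mm9. The quantifier's version is not given in the sources used here. The authors deposited FPKM values per gene, without counts, so depth was estimated from steps between low values.

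Values of rows sharing a symbol were added up, 0 was used where a gene had no row, and the 325 genes named in rows of several genes were left out of comparisons, leaving 12417. Log2 ratios of FPKM + 1 were counted past an absolute value of 1. limma 3.58.1 was run in R 4.3.3 on log2(FPKM + 1) of genes with at least 1 FPKM in at least 1 library, with Benjamini-Hochberg adjustment. Scripts used Python 3.11.15 and were tested on simulated data. The GO annotation is that of the files.

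Every member was accounted for. Given in full were the catalytic, immunoproteasome, activator and Psmg genes, members without a row, the 5 largest past 2-fold in each direction, and the highest and lowest of the alpha, ATPase and lid groups. Other pathway genes were named among the largest differences. Some of these genes are not reported here. The members and all lists were chosen with earlier results of these data known. Shared transcript stretches of 50 letters were searched among annotated transcripts, not in the genome.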

Additional observations from a re-analysis of the deposited data

Results flagged for a closer look

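Knockout differences of opposite sign in HSC and CLP drew attention, each from 1 library against 1, and whether HSC and CLP differ in this was not tested. The median log2 ratio of GRK6-/- against WT of the alpha subunits was 0.32 in HSC and -1.04 in CLP. For single genes, those with at least 0.5 in both populations and at least 1 in either were taken. Psma4 had 0.90 in HSC and -1.37 in CLP, Psma5 0.77 and -1.85, and Psmg2 1.92 and -0.58. Psmd10 (-1.30 and 0.77) and Psmd4 (-0.58 and 1.41) went the other way. All CLP values use the GRK6-/- CLP library with its high erythroid, B lineage and antigen-presenting markers.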

How the results depend on the processing

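The group medians stayed close to those reported with a pseudocount of 0.1 or 10, a filter of 1 FPKM in both libraries, or joint rows counted for each gene. So they did with libraries rescaled so that the median gene had no difference, or 1 row per symbol (the highest). The counts past 2-fold depended more on the pseudocount. They were 7, 16, 8 and 13 as reported, in GRK6-/- against WT HSC and CLP, then in CLP against HSC in WT and GRK6-/-. With a pseudocount of 0.1 they were 9, 16, 8 and 14, and with 10 they were 5, 12, 6 and 10. Without Psmc3ip and Psma8 (chosen after seeing the data) they were 7, 14, 6 and 13. Under the other settings named they stayed close. The 1 group median that changed sign was that of the base subunits other than ATPases for CLP against HSC in WT, 0.01 as reported and -0.02 after rescaling, both close to 0. At an absolute log2 ratio of at least 2, the members past it were 1 in GRK6-/- against WT HSC, 6 in GRK6-/- against WT CLP, 3 in WT CLP against WT HSC and 3 in GRK6-/- CLP against GRK6-/- HSC. The share of all genes was not counted at this threshold or with the other pseudocounts, so these member counts have no background beside them. Leaving out the pair of Psmb8 and Psmb5, also chosen after seeing the data, gave an immunoproteasome ratio of 0.706 (WT) and 0.469 (GRK6-/-) in HSC and 0.729 (WT) and 0.691 (GRK6-/-) in CLP. With 1 FPKM required in all 4 libraries, limma gave unadjusted p under 0.05 for Psmc3ip and Psmd9 (genotype) and Psmc4 (population), none called after adjustment. With quantile normalization limma called 1 gene for genotype, not a member. No paired analysis was possible because each group has 1 library and the labels give no replicate numbers. Low values such as those of Psmd9 and Psmc3ip in WT CLP rest on few fragments, and amplification of few cells adds an error that these files do not measure.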
